A study of Homo sapiens with 6 samples.

Results

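The genes described here are 35 regulators and targets of NRF2, the transcription factor encoded by NFE2L2, in A549, an established line grown from a human lung adenocarcinoma. They were taken by gene symbol from a list of the pathway. Of the 35, 30 had a probe with a detection p-value under 0.05 on at least 3 of the 6 arrays and were tested, among 11358 genes tested in all. Each gene is given by its brightest detected probe over the 6 arrays, and all 30 were detected on all 6 arrays. No probe carried AKR1B1, FTH1, OSGIN1 or ABCC1 as its only symbol in the platform annotation, and these genes are not analysed here. The only AKR1C1 probe was detected on 0 arrays.

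The cells had been transfected with pcDNA-NME2-MYC (NME2-induced, 3 arrays), which carries a MYC-tagged NME2, or with pcDNA-MYC (control, 3 arrays), the tag plasmid alone, and RNA was taken 48 h later from biological replicates. NME2 moves phosphate between nucleotides and is also known as a DNA-binding protein. The share of cells that took up a plasmid is not given in the sources used here. As these are bulk samples, fewer cells with a transcript and less transcript per cell cannot be told apart.

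NRF2 is held at a low level by KEAP1, an adaptor that hands it to the CUL3 ubiquitin ligase for degradation. Oxidants and electrophiles modify KEAP1, and NRF2 then accumulates, pairs with a small MAF protein such as MAFG and binds antioxidant response elements near genes of glutathione and thioredoxin metabolism, NADPH supply, iron storage and detoxification. A549 cells are known to carry an inactivating KEAP1 mutation, so that NRF2 is active without a stimulus. The arrays read transcript level and not genotype, activity or protein.

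The core letters of the antioxidant response element, TGACNNNGC, were searched on both strands of the RefSeq promoter windows (GRCh38.p14, 250 bases before to 50 bases after each start site). A window was available for 25 of the 35 genes, some with several start sites, and 10 of their 32 windows (31.2%) held the core, against 13.3% of all 35116 windows of this length. The 9 genes with the core were GCLM, KEAP1, ME1, PIR, GPX2, EPHX1, TXNRD1, PGD and CBR1. A match is a description of letters and not of binding. The following 6 stretches of 29 bases are shown because the first 4 form pairs that share a core, and the others stand near 0 (GPX2) and among the lowest values (EPHX1) of the comparison below. Each is printed on the strand that reads the core, which is in capitals.
GCLM (chr1:93909446-93909474, plus strand): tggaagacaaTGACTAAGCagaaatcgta
KEAP1 (chr19:10502784-10502812, plus strand): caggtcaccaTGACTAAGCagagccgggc
ME1 (chr6:83431170-83431198, minus strand): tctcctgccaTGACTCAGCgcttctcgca
PIR (chrX:15493289-15493317, plus strand): agcctcaccgTGACTCAGCgcttcgcggc
GPX2 (chr14:64942849-64942877, plus strand): atccccaggaTGACTTAGCaaaaacaggt
EPHX1 (chr1:225825266-225825294, plus strand): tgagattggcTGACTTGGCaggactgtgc

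GCLM and KEAP1 share the core TGACTAAGC, and ME1 and PIR share TGACTCAGC. The core of ME1 and PIR overlaps TGACTCA, the site known for AP-1 factors, which 4.95% of all windows held on either strand. The core of GCLM starts 34 bases before its start site, and the 250 bases before that site, chr1:93909431-93909680 on the minus strand, are shown. They were chosen because GCLM had the largest difference between the groups among the 30 tested genes. The core is in capitals and reads in reverse here.
GCLM upstream: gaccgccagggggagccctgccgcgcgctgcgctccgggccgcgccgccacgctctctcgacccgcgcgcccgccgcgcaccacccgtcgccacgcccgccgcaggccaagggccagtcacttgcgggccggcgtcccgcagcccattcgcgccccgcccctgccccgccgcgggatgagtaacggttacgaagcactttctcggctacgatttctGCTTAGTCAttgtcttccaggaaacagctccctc

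Between 19043 and 20726 of 47231 probes were detected per array, and arrays correlated at 0.989 or more across the genes tested. Of 8 epithelial markers, 6 were tested and 0 passed, with a median percentile of 67.8 among all genes in control cells. They ran from KRT7 (97.4), KRT8 (96.5) and KRT19 (79.5) to MUC1 (56.2), CDH1 (48.6) and EPCAM (32.6), while neither KRT18 probe was detected. Of 15 markers of other cell types, 6 met the detection filter and 0 passed the test. Of these, CD68 (92.8) and ACTA2 (88.5) were bright and CD14 (36.7), ALB (20.8), COL1A1 (14.1) and COL1A2 (6.6) dim in control cells, and the other 9, PTPRC, CD3E, PECAM1 and VWF among them, did not meet the filter. Probes of the transfected gene disagreed. The NME2 probe used gave signals of 342, 298 and 296 in NME2-induced cells and of 147, 144 and 139.5 in control cells. It was the brightest over the 6 arrays. Another NME2 probe, the brightest in control cells, gave 165, 141 and 162 in NME2-induced cells and 250, 246 and 232 in control cells. That probe went the other way, at a log2 fold change of -0.59, while a further detected NME2 probe was at 0.26, with overlap. A readthrough NME1-NME2 probe gave 1634, 1563 and 1713 in NME2-induced cells and 7049, 6306 and 6243 in control cells. The groups are therefore named by their labels, and every direction given here follows those labels.

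In control cells the probes of the pathway were among the bright ones. Signals of each control array were ranked over the 11358 genes, and the median percentile of the 30 genes was 93.3, 92.5 and 92.5 on the 3 control arrays. By the median of the 3 arrays, 17 of the 30 lay above the 90th percentile (56.7%) and 22 above the 75th (73.3%). These are ranks of probe signal, which also depends on how well each probe binds its target, and not of transcript number. All 6 samples were A549 cells, so a link between these ranks and NRF2 activity was not tested. The brightest were FTL, the ferritin light chain that stores iron, above all but a few genes, followed by AKR1C2 (99.9), AKR1C3 (99.7), TXN (99.6), AKR1B10 (99.4) and PRDX1 (99.2). NQO1, the quinone reductase by which NRF2 activity is often followed, stood at 98.7. At the other end were CBR1 (46.2), CBR3 (45.1), GSR (48.2) and the cystine carrier SLC7A11 (51.2). On a wider list of 68 NRF2 targets, 54 were tested, and their median percentile was 83.8.

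**Figure D1:**
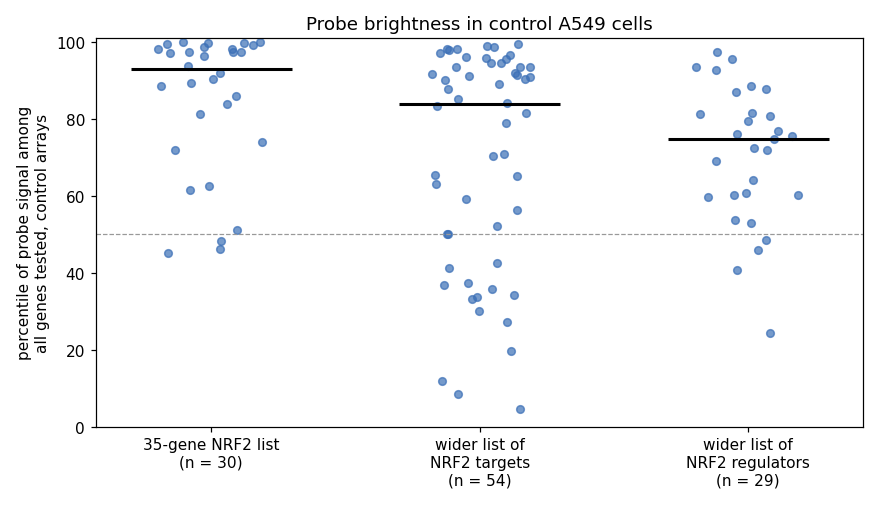
Percentile of each gene's probe signal among all 11358 genes tested (vertical axis, median of the 3 control arrays) for the 35-gene list and 2 wider lists; each point is a gene and each black bar the median of its list. The 30 tested genes of the list have a median of 92.9, the wider targets 83.8 and the wider regulators 74.7.

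The comparison between the groups asked whether the pathway changed its transcript levels when NME2 was induced. Of the 30 genes, 0 passed the threshold in either direction (limma, adjusted p under 0.05 over all 11358 genes). Of all genes tested 0.247% passed, 0.158% higher and 0.0880% lower in NME2-induced cells. The smallest adjusted p was 0.225, that of GCLM. At an unadjusted p under 0.05, limma gave 1 gene higher and 5 lower, or 20.0% of the 30, beside 14.5% of all genes (7.30% higher and 7.17% lower). The groups did not overlap in 11 of the 30 (36.7%), beside 22.0% of all genes, 6 of them higher (11.3% of all genes) and 5 lower (10.7%) in NME2-induced cells. Log2 fold changes lay between -0.34 and 0.33 with a median of -0.01, beside 0.00 over all genes, and 0 of the 30 exceeded 0.5 in size, beside 1.81% of all genes. Other tests gave other counts. With the trend and robust settings that limma offers, 2 of the 30 passed the adjusted threshold, GCLM and HMOX1, both lower, beside 2.64% of all genes (1.21% lower). A plain t-test with equal variances was run on the same log2 values. Without adjustment it called 4, GCLM, HMOX1 and NFE2L2 lower and ABCC3 higher, beside 13.8% of all genes. After adjustment it called 0 of the 30.

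The precision of these values sets how large a difference could be missed. The 95% interval of the fold change (limma, not adjusted over genes) lay within a 2-fold change either way for all 30 genes and within a 1.5-fold change for 28. The widest bounds were -0.64, for EPHX1, and 0.65, for CES1. All arrays shared the same highest signal, 22798. The control signals of FTL, AKR1C2, AKR1C3, TXN and AKR1B10 were too near that ceiling for a 2-fold rise to appear. For these genes an upper bound under a 2-fold change was therefore fixed beforehand. The pooled SD between arrays of a group had a median of 0.099 on the log2 scale over the 30 genes, beside 0.131 over all genes. The set of all genes was not matched for brightness to the 30, whose median percentile was 92.9. This holds for the shares of all genes given above as well. A failure to pass does not show that a gene was the same in both groups.

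**Figure D2:**
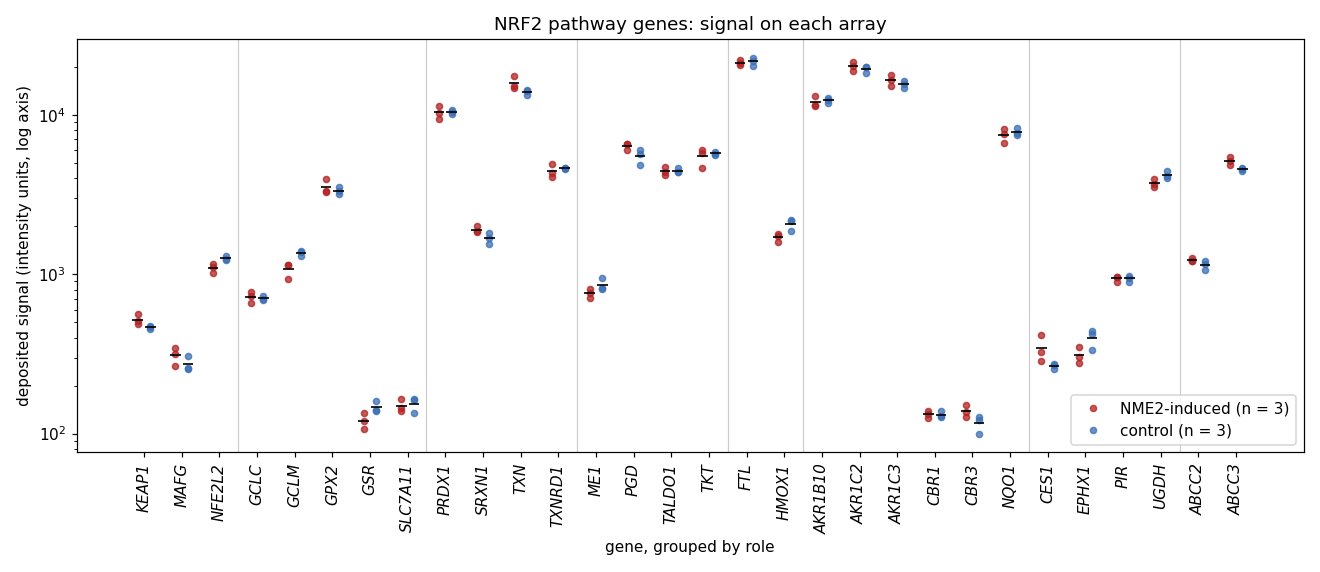
Deposited signal (intensity units, log axis) of the 30 tested genes, grouped by role, on each of the 3 NME2-induced arrays (left of each pair) and the 3 control arrays (right); black bars are group means. Signals run from 99.9 for CBR3 to 22798 for FTL, and in 11 genes the points of the 2 groups do not overlap.

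Among the regulators, the transcript of NRF2 itself was on the lower side in NME2-induced cells and that of KEAP1 on the higher. NFE2L2 gave signals of 1161, 1112 and 1011 in NME2-induced cells, against 1218, 1309 and 1251 in control cells. The 3 NME2-induced arrays lay below all control arrays (log2 fold change -0.20, SE 0.09, limma adjusted p = 0.343). KEAP1 gave 487, 562 and 507 in NME2-induced cells, against 466, 474 and 451 in control cells, again without overlap (log2 fold change 0.16, SE 0.09, limma adjusted p = 0.446). A second KEAP1 probe gave 401, 456 and 442 in NME2-induced cells and 368, 356 and 341 in control cells (log2 fold change 0.27, with an adjusted p of 0.273 by limma across every detected probe), so both detected probes lay on the higher side and neither passed. MAFG, the small MAF partner, gave 347, 267 and 316 in NME2-induced cells, against 254, 306 and 258 in control cells, with overlap. Its second probe went the other way, with log2 fold changes of 0.17 for the probe used and -0.19 for the second.

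Among the 30 genes, GCLM of the glutathione group had the largest difference by the probe used. Those of EPHX1 and CES1 were nearly as large. GCLM, the modifier subunit of glutamate-cysteine ligase, which makes the first step of glutathione synthesis, gave 1146, 1141 and 931 in NME2-induced cells, against 1385, 1390.1 and 1298 in control cells. All NME2-induced arrays lay below all control arrays, most of all replicate 3, and the signal was 0.789 times that of control cells (log2 fold change -0.34, SE 0.10, 95% interval -0.58 to -0.10, limma adjusted p = 0.225). A second, dimmer GCLM probe had a log2 fold change of -0.14 (SE 0.13). GCLC, the catalytic subunit of the same enzyme, gave 659, 727 and 768 in NME2-induced cells, against 728, 691 and 701 in control cells, with overlap and a log2 fold change of 0.02 (SE 0.09). The second GCLC probe was at 0.27 (SE 0.12), so the 2 subunits stood on opposite sides of 0 by either probe. The difference between them was not tested, and GCLC changed sign in 1 of 16 alternative settings.

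GSR, the reductase that regenerates reduced glutathione, was dim and gave 107, 135 and 119.5 in NME2-induced cells, against 161, 138 and 141 in control cells. The groups did not overlap, although the highest NME2-induced array came close to the lowest control array (log2 fold change -0.26, SE 0.11, limma adjusted p = 0.329). GPX2, a selenium-dependent glutathione peroxidase of epithelia, gave 3321, 3947 and 3268 in NME2-induced cells, against 3501, 3324 and 3204 in control cells, with overlap. SLC7A11, which imports cystine for glutathione synthesis, gave 145, 139 and 164 in NME2-induced cells, against 162, 164 and 134 in control cells, and its log2 fold change was -0.03 (SE 0.11). In this group 2 of 5 genes, GCLM and GSR, were lower by limma at an unadjusted p under 0.05, beside 7.17% of all genes, and 0 were higher, beside 7.30%.

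The iron and heme genes were read by FTL and HMOX1. HMOX1, the heme oxygenase that frees iron from heme, gave 1783, 1735 and 1592 in NME2-induced cells, against 2178, 2149 and 1879 in control cells. The groups did not overlap, and the signal was 0.826 times that of control cells (log2 fold change -0.28, SE 0.09, 95% interval -0.50 to -0.06, limma adjusted p = 0.261). FTL gave 20554, 21162 and 21947 in NME2-induced cells, against 21761, 22798 and 20319 in control cells, with overlap and a log2 fold change of -0.03 (SE 0.08). Its second probe was at 0.05.

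Of the 4 thioredoxin genes tested, 2 lay on the higher side without overlap, beside 11.3% of all genes. By the probes used, the others were near 0. TXN, or thioredoxin, gave 17580.0, 14812 and 15048 in NME2-induced cells, against 14086, 13355 and 14299 in control cells (log2 fold change 0.18, SE 0.09, limma adjusted p = 0.422). Its second probe was at 0.12. SRXN1, the sulfiredoxin that repairs overoxidised peroxiredoxins, gave 1863, 2005 and 1835 in NME2-induced cells, against 1810.3, 1536 and 1691 in control cells, and the lowest NME2-induced array was close to the highest control array (log2 fold change 0.18, SE 0.09, limma adjusted p = 0.414). PRDX1, a peroxiredoxin that removes hydrogen peroxide, overlapped between the groups, as did TXNRD1, the reductase of thioredoxin. Their log2 fold changes were -0.01 (SE 0.10) and -0.07 (SE 0.09) by the probes used. The second PRDX1 probe was at 0.00. A second TXNRD1 probe was at -0.175 (SE 0.095), without overlap. Its 2742 in NME2-induced replicate 3 came close to its 2744 in control replicate 1.

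The NADPH-supplying genes did not move together. PGD, the second dehydrogenase of the pentose phosphate pathway, gave 6039, 6538 and 6518 in NME2-induced cells, against 4857, 5639.9 and 5966 in control cells. These did not overlap, and control replicate 1 lay furthest from the rest (log2 fold change 0.22, SE 0.10, limma adjusted p = 0.374). ME1, the cytosolic malic enzyme, gave 812, 762.5 and 707 in NME2-induced cells, against 953, 807 and 818 in control cells, with overlap (log2 fold change -0.17, SE 0.10). TKT and TALDO1, which carry the non-oxidative branch of the same pathway, were at -0.07 (SE 0.11) and -0.01 (SE 0.08). For TKT, NME2-induced replicate 1 was the lowest of the 6 arrays at 4646, beside a range of 5558 to 6017 in the other 5.

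The carbonyl and quinone reductases overlapped between the groups in all 6 genes tested, and 0 of 6 had an unadjusted p under 0.05 by limma. NQO1 gave 7594, 8107 and 6616 in NME2-induced cells, against 8313, 7411 and 7661 in control cells (log2 fold change -0.07, SE 0.10). Its second, dimmer probe was at -0.17 (SE 0.14), with overlap. AKR1B10, an aldo-keto reductase of retinal and other aldehydes, gave 13135, 11386 and 11439 in NME2-induced cells, against 12723, 11865 and 12338 in control cells (log2 fold change -0.04, SE 0.09). AKR1C3, a ketosteroid reductase, gave 17741, 16581 and 15164 in NME2-induced cells, against 14720.3, 15532 and 16292 in control cells (log2 fold change 0.09, SE 0.09). In each of these 3 the ranges of the groups overlapped. CBR1 and CBR3, carbonyl reductases whose genes both lie on chromosome 21, were at 0.01 (SE 0.08) and 0.22 (SE 0.11), and the 3 CBR3 signals in NME2-induced cells, 136, 151 and 127, overlapped with the 99.9, 127 and 123 of control cells only at the border.

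AKR1C1 and AKR1C2 are near-identical genes, which lie with AKR1C3 in a cluster on chromosome 10 (chr10:4963415-4983283 for AKR1C1 and chr10:4987775-5018000 for AKR1C2, GRCh38.p14), so that a probe annotated to 1 of them may read both. The AKR1C2 probe used gave 18817, 21427 and 20137 in NME2-induced cells, against 19856, 19856 and 18255 in control cells, with overlap (log2 fold change 0.06, SE 0.09). The AKR1C1 probe had signals below 0 on all 6 arrays. AKR1C2 had 6 probes, of which 4 were kept, and the 3 kept probes other than the one used were dim. The brightest of these 3 gave 62.9, 67.1 and 55.2 in NME2-induced cells, against 109, 76.7 and 85.5 in control cells, without overlap (log2 fold change -0.45, with an adjusted p of 0.232 by limma across every detected probe). Probes of the same gene thus stood on both sides of 0, and which transcript each reads was not tested.

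**Figure D3:**
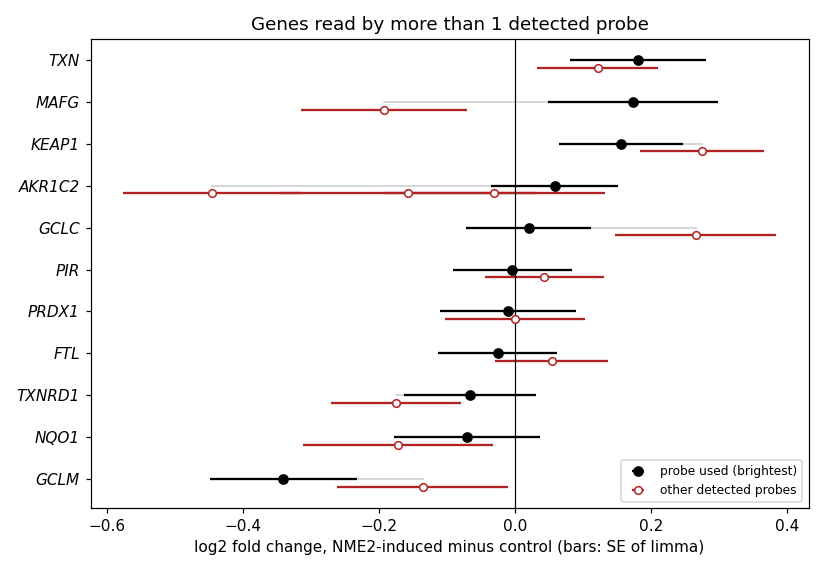
Log2 fold change (horizontal axis, NME2-induced minus control) of every detected probe for the 11 genes with more than 1; filled points are the probes used, open points the others, and bars the SE of limma over all detected probes. The probes of MAFG, AKR1C2, PIR and FTL lie on both sides of 0, while both GCLM probes lie below it and both KEAP1 and both TXN probes above it.

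The remaining enzymes and the transporters held the largest value on the higher side among the 30 genes. CES1, a carboxylesterase, gave 326, 283 and 418 in NME2-induced cells, against 269, 274 and 254 in control cells. The groups did not overlap (log2 fold change 0.33, SE 0.14, limma adjusted p = 0.329), but the log2 levels had an SD of 0.271 in NME2-induced cells, against 0.055 in control cells. Without NME2-induced replicate 3, the highest array, the log2 fold change of CES1 was 0.19 (SE 0.10). EPHX1, the microsomal epoxide hydrolase, gave 278, 300.5 and 352 in NME2-induced cells, against 419.9, 439 and 333 in control cells, with overlap (log2 fold change -0.34, SE 0.13, limma adjusted p = 0.31). Both genes thus had an unadjusted p under 0.05 with the 2 largest SE of the 30. UGDH, which makes UDP-glucuronic acid, gave 3665, 3952.5 and 3536 in NME2-induced cells, against 4126, 3984 and 4456 in control cells, without overlap (log2 fold change -0.17, SE 0.09). PIR, an iron-binding nuclear protein, was at 0.00 (SE 0.08).

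The export pumps ABCC2 and ABCC3 carry glutathione and glucuronide conjugates out of the cell. ABCC3 gave 4842, 5114 and 5466 in NME2-induced cells, against 4456, 4615 and 4591 in control cells. All NME2-induced arrays lay above all control arrays (log2 fold change 0.17, SE 0.08, limma adjusted p = 0.385). ABCC2 gave 1215, 1263 and 1207 in NME2-induced cells, against 1213, 1157 and 1068.5 in control cells, with overlap (log2 fold change 0.10, SE 0.08).

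**Figure D4:**
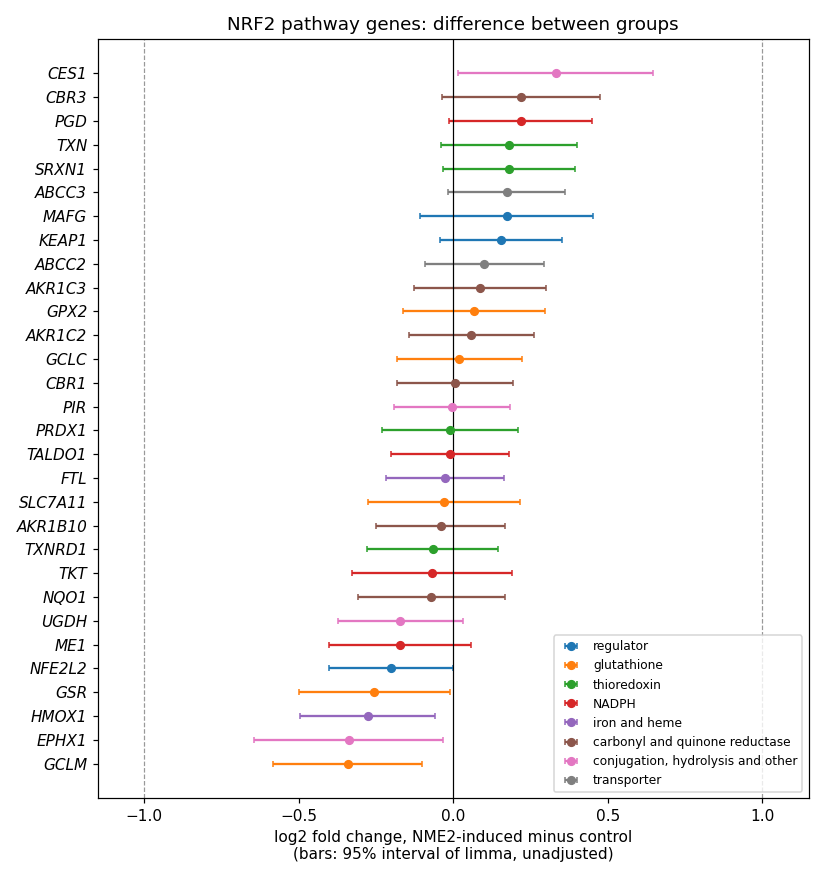
Log2 fold change (horizontal axis, NME2-induced minus control) of the 30 tested genes in order of size, coloured by role; bars are 95% intervals of limma, not adjusted over genes, and dashed lines mark a 2-fold change. All intervals stay inside the dashed lines, and those of GCLM, EPHX1, HMOX1, GSR, NFE2L2 and CES1 leave out 0.

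The presence of the response element core was set beside these values. The 9 tested genes with the core in a window had a median log2 fold change of 0.00, and the 13 tested genes with windows but no core one of 0.02. Their median percentiles in control cells were 86.0 and 97.3. A core more than 250 bases before a start site would not be seen, so the 13 may have one elsewhere. Tested genes without a window, HMOX1, SLC7A11 and GSR among them, are in neither set. GCLM and KEAP1, which share TGACTAAGC, were at -0.34 and 0.16, and ME1 and PIR, which share TGACTCAGC, at -0.17 and 0.00. GPX2 was at 0.07 and EPHX1 at -0.34. The windows of KEAP1 and ME1 each held another core as well, and differences between genes that share a core were not tested.

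Averaged over the 30 genes and set against the control mean, the log2 level was -0.02, 0.02 and -0.01 on the NME2-induced arrays and 0.01, 0.01 and -0.02 on the control arrays. Single roles spread further. The 5 glutathione genes averaged -0.16, -0.04 and -0.12 on the NME2-induced arrays, against 0.07, 0.00 and -0.07 on the control arrays, which overlapped. The 2 iron and heme genes averaged -0.14, -0.14 and -0.17 on the NME2-induced arrays, against 0.04, 0.07 and -0.11 on the control arrays. The 2 transporters averaged 0.09, 0.15 and 0.17 on the NME2-induced arrays, against 0.03, 0.02 and -0.04 on the control arrays. The 4 thioredoxin genes averaged 0.04, 0.06 and 0.12 on the NME2-induced arrays, against 0.03, -0.05 and 0.03 on the control arrays. The groups did not overlap in the last 3 roles, of 2, 2 and 4 genes, and did in the other 5. Of single genes, 22.0% did not overlap, and the role averages were not tested. The nearest NME2-induced and control arrays were -0.139 and -0.111 for iron and heme. They were 0.087 and 0.026 for the transporters, and 0.041 and 0.029 for the thioredoxin genes.

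Other genes of the pathway gave the same count. On the wider list of NRF2 targets, 0 of the 54 genes tested passed limma's adjusted threshold. With no adjustment, 2 were higher and 6 lower at 0.05, or 14.8% beside 14.5% of all genes, with a median log2 fold change of 0.01. The smallest p belonged to CBR4, a mitochondrial carbonyl reductase, which gave 67.7, 90.6 and 65.9 in NME2-induced cells, against 111, 102 and 100.5 in control cells (log2 fold change -0.42, SE 0.12, limma adjusted p = 0.201). PPAT, the first enzyme of purine synthesis, was at -0.30 (SE 0.09), and GSS, the glutathione synthetase that completes what the GCLC and GCLM enzyme begins, at 0.34 (SE 0.11). The groups of all 3, which were named for the smallest p of the list, did not overlap. Over the 54 genes the groups did not overlap in 13 (24.1%), beside 22.0% of all genes.

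Among 36 further regulators of NRF2, 29 were tested and 0 passed, with 4 higher and 2 lower by limma at an unadjusted p under 0.05 (20.7%, beside 14.5% of all genes) and a median log2 fold change of 0.03. RXRA, a nuclear receptor known to bind and restrain NRF2, gave 598, 594 and 572 in NME2-induced cells, against 484.5, 483 and 501 in control cells (log2 fold change 0.26, SE 0.07, limma adjusted p = 0.209). NFE2L3, a related factor, was at 0.22 (SE 0.08) and the small MAF gene MAFF at 0.35 (SE 0.13), both without overlap. RXRA, NFE2L3 and MAFF were named for the smallest p of the list. Over the 29 genes the groups did not overlap in 10 (34.5%), beside 22.0% of all genes. CUL3 and the repressor BACH1 did not meet the detection filter.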

How the data were processed

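Illumina Human HT-12 v4 arrays were read for 3 NME2-induced and 3 control samples, with groups and replicate numbers from the sample labels. The deposited values are intensities on a linear scale with a detection p-value per probe, which the authors exported from BeadStudio (no version given). The 2 deposited tables held equal intensities, and at each of the 1000 brightest positions the 6 arrays had the same value, so the signals had already been quantile-normalized and background-subtracted by the authors; differences in total brightness cannot be seen in them, and the number of arrays limits the precision.

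Intensities were processed with neqc in limma 3.58.1 (R 4.3.3), offset 16, to log2 values; printed signals are the deposited ones. Probes with a detection p-value under 0.05 on 3 or more arrays were kept (19394 of 47231), those with exactly 1 symbol assigned to genes (14914), and the brightest probe per gene was used. No array or sample column was left out. Promoter windows were those of RefSeq (GRCh38.p14), matched by symbol for 25 members. Groups were compared with lmFit and eBayes, 2-sided, with Benjamini-Hochberg adjustment over 11358 genes and a threshold of 0.05; signed values are NME2-induced minus control. The script was tested on simulated data with 200 changed genes. The members and lists were chosen with earlier results of these data known. Named are all 35 members, the 3 genes of smallest p on each wider list, and NME2 with NME1-NME2; the cell type markers, CUL3 and BACH1 were named outside this rule, after their values were seen. Alternatives were background correction, offset, normalization, detection filter, choice of probe, eBayes options, replicate block, leaving out each array, and a plain t-test.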

Additional observations from a re-analysis of the deposited data

How the results depend on the processing

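When eBayes was run with a trend and robustly, 2 of the 30 genes passed, both lower: GCLM (limma adjusted p = 0.0139, and 0.082 to 0.434 in the other alternatives) and HMOX1 (limma adjusted p = 0.0355, and 0.122 to 0.475 in the others). Over all genes the count then was 300 (2.64%) in place of 28. By the plain t-test at p under 0.05 unadjusted, 4 of the 30 passed (GCLM, HMOX1 and NFE2L2 lower, ABCC3 higher). That test called 9 of the wider targets, 7 of the wider regulators and 1572 of all genes (13.8%). After Benjamini-Hochberg adjustment it gave 0 of the 30 and 13 of all genes. Under the other 15 alternatives tried with limma, 0 of the 30 passed. The count over all genes was 148 with normexp without detection p-values at an offset of 50, 123 with neqc at that same offset, 17 without a detection filter, 69 with detection on all 6 arrays, and between 6 and 11 with 1 array left out. The median log2 fold change of the 30 lay between -0.007 and 0.019 with 1 array left out. The median baseline percentile was 95.5 without a detection filter and 91.9 with detection on all 6 arrays. Of the 30 genes, 18 kept their direction in all 16 alternatives with limma, and 12 changed sign in at least 1, with 0 of them past the threshold in any.

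Replicate numbers are shared by the groups, but same-numbered arrays did not deviate together (correlations of 0.0337, -0.0408 and -0.0408 across genes), and not every array correlated best with its own number. With the replicate block, 0 of the 30 genes and 5 of all genes passed. The other deposited table held the same intensities and so gave no further values. NME2 had, with the block, a limma adjusted p of 0.0626 at a log2 fold change of 1.04. By the probe brightest in control cells the NME2 value was -0.59.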

Other observations

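The brightest probes of the pathway sit at the very top of the arrays, where the deposited signal is fixed by rank. Among all 47231 probes, the FTL probe ranked 8, 5 and 2 on the NME2-induced arrays and 3, 1 and 9 on the control arrays, and the AKR1C2 probe 27, 4 and 10 on the NME2-induced arrays and 13, 13 and 35 on the control arrays. AKR1C3 ranked between 42 and 94 on the NME2-induced arrays and between 72 and 102 on the control arrays. TXN ranked 45, 100 and 95 on the NME2-induced arrays and 114, 129 and 109 on the control arrays. As each rank carries the same signal on every array, a log2 fold change of these genes can express only a change of rank.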
